A study of Mus musculus with 22 samples.

Results

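Secreted neurotrophic and growth factors were followed in mouse spinal cord after the aorta had been cross-clamped, an operation that interrupts blood flow to the cord. The genes were chosen by name, with earlier results of these data known, and comprise Bdnf, Ntf3, Gdnf, Cntf, Fgf2, Hbegf, Igf1, Inhba and Tgfb1. Of these 9 genes, 7 could be measured, out of 18193 genes tested on the array. Each gene was read from the probe set with the highest mean among those that carry its symbol alone. Ntf3 was listed for no probe set in the annotation used here, and Cntf only for a probe set that also carries Zfp91 and Gm44505, so neither was analysed here.

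All mice were C57Bl/6 wild type, 10 to 12 weeks old. They had undergone either clamping for 7.5 min, with cord taken 24 h or 48 h later, or sham surgery without clamping, for which the labels give no time. RNA from below the sixth thoracic segment (caudal) and from above it (rostral) went onto separate Affymetrix Mouse430_2 arrays. The caudal groups held 3 sham, 3 24 h and 4 48 h arrays, and the rostral groups 4 sham, 3 24 h and 4 48 h arrays. Another rostral array, numbered 276, carried both times in its labels and was placed in no group. The labels do not say whether the arrays of a group come from separate animals, so every p-value reflects scatter among these arrays, part of which may be technical.

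The measured genes belong to several signalling families. Brain-derived neurotrophic factor (Bdnf) signals through a Trk receptor and the p75 receptor and supports neuronal survival and synaptic plasticity. Glial cell line-derived neurotrophic factor (Gdnf) acts through a GPI-anchored co-receptor and the kinase Ret and is a survival factor for motor neurons. Heparin-binding EGF-like growth factor (Hbegf) is shed from the cell surface and binds the EGF receptor and Erbb4, fibroblast growth factor 2 (Fgf2) is a mitogen for glia and vessels, and insulin-like growth factor 1 (Igf1) is trophic for neurons and oligodendrocytes. Inhba encodes the subunit that dimerises to activin A, and Tgfb1 encodes transforming growth factor beta 1. Both of these are ligands of the same superfamily and signal through Smad proteins.

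Values are log2 signals and are compared between arrays for 1 probe set at a time, never between genes. Gdnf and Fgf2 were dim, below the lower quartile of the array on all 21 grouped arrays, and Tgfb1 lay below the array median on 18 of 21. The lower quartile was 5.52 on caudal 48 h array 271 and 5.17 to 5.27 on all others. Whether dim probe sets read higher on array 271 for this reason was not tested. Some arrays stood apart. The spread of signals within an array (SD) was 2.05 on caudal 48 h array 271 and 2.21 to 2.27 on all others. The Gapdh control signal was lower at its 5-prime end than at its 3-prime end by −1.05 on caudal 48 h array 274 and −0.68 on caudal sham array 280, against −0.21 to 0.04 elsewhere. Both 24 h arrays numbered 283 went against their region labels. Hoxc10, a gene of posterior cord, read 5.67 on the one labelled caudal and 10.14 on the one labelled rostral, against 9.19 to 10.48 on other caudal and 5.32 to 6.22 on other rostral arrays.

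At 48 h below T6, Hbegf, Inhba and Gdnf rose against sham, and no measured factor passed the threshold as lower. This comparison asks how the cord distal to the clamp differs from operated cord with intact flow. With limma and Benjamini-Hochberg adjustment over all genes, 3 of 7 factors passed an adjusted p of 0.05, all of them higher. Igf1 had a lower mean and lay just outside the threshold (−0.84 ± 0.27, limma adjusted p = 0.0508). Over all genes 12.5% passed, with 5.52% higher and 7.02% lower. The median log2 difference was 0.60 over the 7 factors and 0.00433 over all genes. The unadjusted p was below 0.05 for 7 of 7 factors and for 6241 of 18193 genes. The arrays of both groups did not overlap for 3 factors (Hbegf, Gdnf and Bdnf), against 20% of all genes. Because these are bulk samples, fewer cells of a type and less RNA per cell cannot be told apart.

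**Figure D1:**
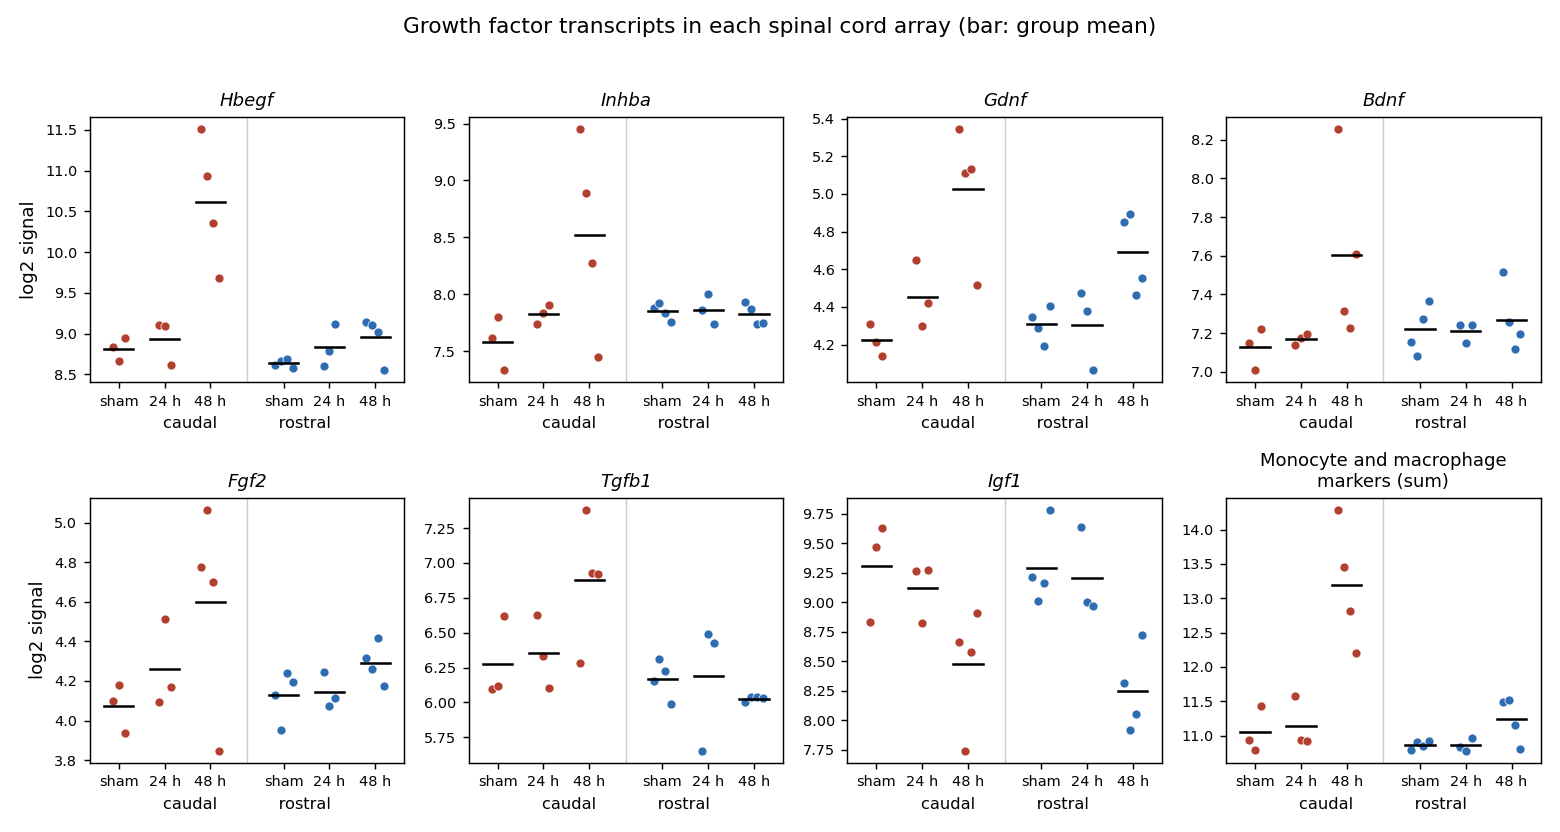
Log2 signal of each measured factor, and of the summed monocyte and macrophage markers, on every grouped array (points) with the group mean (bar), in caudal (red) and rostral (blue) cord. The 4 caudal 48 h arrays of Hbegf lie between 9.68 and 11.51, above all other arrays, while the mean of Igf1 is lowest at 48 h in both regions.

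Hbegf, the EGF receptor ligand, had the largest difference of the 7 factors. Its log2 signal was 11.51, 10.93, 10.35 and 9.68 on caudal 48 h arrays 271 to 274, against 8.83, 8.67 and 8.94 on caudal sham arrays 278 to 280. Every 48 h array lay above every sham array, and array 271 was the highest. The difference was 1.81 ± 0.28 (SE, n = 4 and 3), a 3.49-fold rise with a 95% interval of 1.22 to 2.39 on the log2 scale and a limma adjusted p of 0.000407. A second probe set of Hbegf gave 1.74 ± 0.27, with a limma adjusted p of 0.000532 over all probe sets with 1 symbol. The call was kept when any 1 of 21 arrays was left out, with differences of 1.51 to 2.12. It was lost when the compared groups were fitted alone (limma adjusted p = 0.106), a fit in which no spread is borrowed from the other groups.

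Inhba, the activin A subunit, was more variable. It read 9.45, 8.89, 8.28 and 7.45 on caudal 48 h arrays 271 to 274, against 7.61, 7.80 and 7.33 on caudal sham arrays. Array 274 fell within the sham range while the other 48 h arrays lay above it. The difference was 0.94 ± 0.28 (SE, n = 4 and 3; limma adjusted p = 0.0366), a 1.91-fold rise. The call was lost without caudal 48 h array 271 (difference 0.62, adjusted p = 0.0632) or 272 (0.81, 0.0694), and without caudal sham array 278 (0.95, 0.105), 279 (1.04, 0.0653) or 280 (0.81, 0.133), all from limma. It was also lost without both arrays numbered 283 (limma adjusted p = 0.0572) and with the compared groups fitted alone (limma adjusted p = 0.487). A dimmer probe set of Inhba gave 0.17 ± 0.13, with a limma adjusted p of 0.360.

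Gdnf, the Ret ligand, read 5.35, 5.11, 5.13 and 4.52 on caudal 48 h arrays 271 to 274, against 4.31, 4.22 and 4.14 on caudal sham arrays. All 48 h arrays lay above all sham arrays, with array 274 nearest to them, and all values were below the lower quartile of their array. The difference was 0.80 ± 0.16 (SE, n = 4 and 3; limma adjusted p = 0.00373), a 1.75-fold rise. The call was kept when any 1 of 21 arrays was left out, with differences of 0.70 to 0.97, and was lost when the compared groups were fitted alone (limma adjusted p = 0.191). Gdnf has 1 probe set with its symbol alone, so no other probe set could be set beside it.

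On the 4 caudal 48 h arrays, the monocyte and macrophage marker sum ranked as Hbegf and Inhba did, but not as Gdnf. The neutrophil and homeostatic microglia sums followed other orders. Of 8 measured monocyte and macrophage markers of 9 listed, 4 rose, against 5.52% of all genes. The summed log2 signal of the 8 was 14.29, 13.45, 12.81 and 12.20 on caudal 48 h arrays 271 to 274, against 10.94, 10.79 and 11.43 on caudal sham arrays 278 to 280. Hbegf, Inhba and this sum placed the 4 caudal 48 h arrays in the same order, from 271 highest to 274 lowest. Gdnf placed them as 271, 273, 272 and 274. Array 271, highest in each case, was also the array with the outlying spread of signals (SD 2.05). An order of only 4 arrays is given as a description. None of the 8 markers lay below the lower quartile on all 21 grouped arrays. The sum of 7 measured neutrophil markers was 14.64, 12.88, 11.71 and 13.24 on these 48 h arrays, lowest on array 273. It was 12.60, 11.16 and 13.24 on the sham arrays. The sum of 6 measured homeostatic microglia markers was 11.60, 12.09, 12.61 and 12.37 on the 48 h arrays, lowest on array 271. Of these 6 microglia markers 0 passed in limma in this comparison, against 12.5% of all genes. The part of these marker lists in the growth factor differences was not tested.

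The other caudal factors did not pass. Bdnf read 8.26, 7.32, 7.23 and 7.61 on caudal 48 h arrays 271 to 274, against 7.15, 7.01 and 7.22 on caudal sham arrays. Array 271 was far above the rest and array 273 only just above the sham range. The difference was 0.48 ± 0.17 (SE; limma adjusted p = 0.0690). It passed without array 272 (0.57, limma adjusted p = 0.0440) or 273 (0.60, 0.0220), was 0.26 without array 271, and was 0.15 ± 0.10 when arrays were weighted by quality in limma. A second Bdnf probe set gave 0.69 ± 0.35. Fgf2 read 4.78, 5.07, 4.70 and 3.85 on caudal 48 h arrays 271 to 274, against 4.10, 4.18 and 3.94 on caudal sham arrays. Array 274 lay below all sham arrays and the other 48 h arrays above them. The difference was 0.52 ± 0.19 (limma adjusted p = 0.0718), and without array 274 it was 0.77 (limma adjusted p = 0.000249).

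Tgfb1, the dim Smad ligand, read 6.28, 7.38, 6.92 and 6.92 on caudal 48 h arrays 271 to 274, against 6.09, 6.11 and 6.62 on caudal sham arrays. Array 271 lay within the sham range, the only 48 h array to do so. The difference was 0.60 ± 0.22 (limma adjusted p = 0.0715). It passed without array 271 (0.80, limma adjusted p = 0.0103) and as the mean of both probe sets (0.50 ± 0.11, limma adjusted p = 0.00752). Without caudal arrays 271, 274 and 280 together, Tgfb1 (1.05 ± 0.22, limma adjusted p = 0.00283), Fgf2 (0.74 ± 0.14, 0.00144) and Igf1 (−0.99 ± 0.33, 0.0352) passed beside Hbegf, Inhba and Gdnf.

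Igf1 was the only measured factor with a lower mean at 48 h than in sham in caudal cord, and its mean was also lower above T6, although neither difference passed. In caudal cord it read 8.66, 7.74, 8.58 and 8.91 on 48 h arrays 271 to 274, against 8.83, 9.47 and 9.63 on sham arrays. The groups overlapped through 48 h array 274 and sham array 278. The difference was −0.84 ± 0.27 (SE, n = 4 and 3; limma adjusted p = 0.0508). In rostral cord Igf1 read 8.31, 7.92, 8.05 and 8.72 on 48 h arrays 271 to 274, against 9.21, 9.01, 9.16 and 9.78 on sham arrays 277 to 280. No rostral 48 h array reached the sham range. The rostral difference was −1.04 ± 0.25 (SE, n = 4 each; limma adjusted p = 0.0804).

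Single arrays moved both Igf1 differences across the threshold. The caudal difference passed in 7 of 21 fits that left out 1 array, with limma adjusted p-values from 0.0149 to 0.175 over the 21, and the rostral one in 4 of 21, from 0.0227 to 0.352. The arrays whose absence gave the caudal call were caudal 48 h arrays 271, 273 and 274, caudal sham array 278, and rostral arrays 274 (48 h), 280 (sham) and 281 (24 h). Those that gave the rostral call were caudal 48 h arrays 271, 272 and 274 and rostral 48 h array 274. The test of the difference between regions gave 0.20 ± 0.37 (limma adjusted p = 0.747).

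The 4 probe sets of Igf1 disagreed in caudal cord. The brightest pair gave −0.84 ± 0.27 and −0.83 ± 0.30, and the dimmer pair gave −0.30 ± 0.26 and −0.00 ± 0.25. In rostral cord the same probe sets gave −1.04 ± 0.25, −1.03 ± 0.28, −0.71 ± 0.24 and −0.71 ± 0.23. None passed in limma over all probe sets. The mean of the 4 gave −0.49 ± 0.25 in caudal and −0.87 ± 0.23 in rostral cord.

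**Figure D2:**
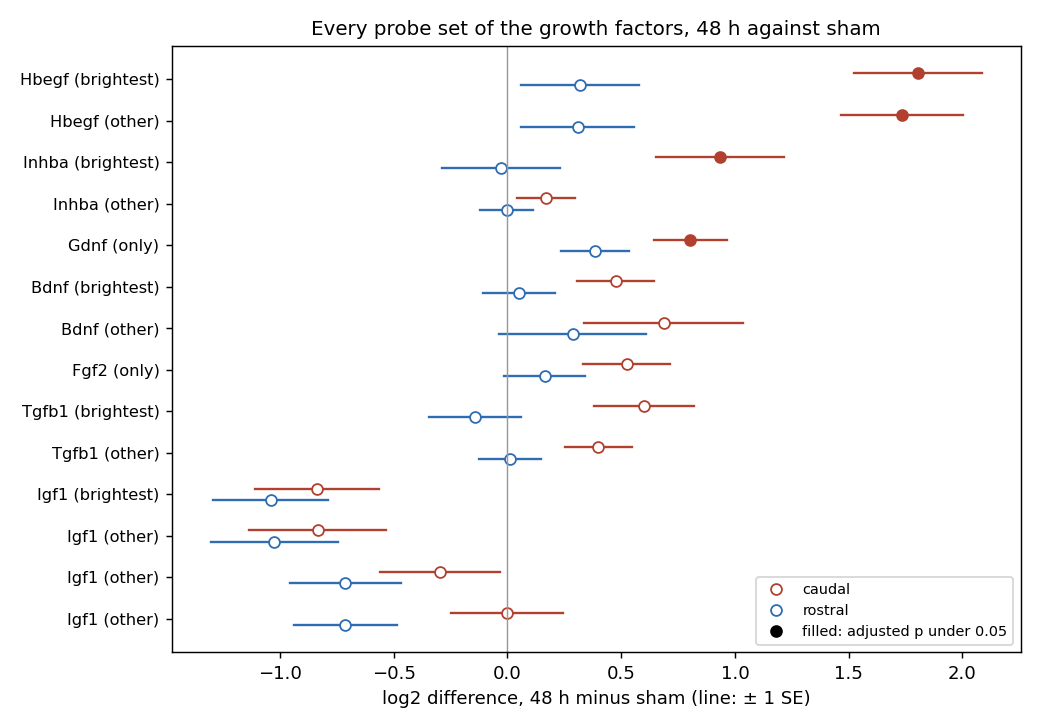
Log2 difference of 48 h minus sham (± 1 SE) for every probe set that carries 1 factor's symbol alone, in caudal (red) and rostral (blue) cord, with filled points at an adjusted p under 0.05. In caudal cord the Hbegf probe sets lie at 1.81 and 1.74, the dimmer Inhba probe set is at 0.17, and the Igf1 probe sets spread from −0.84 to −0.00.

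Start-site windows of the factors are shown for Gdnf and Inhba, which rose in caudal cord, and for Igf1, whose mean was lower at 48 h in both regions. They come from RefSeq on GRCm38.p6, run from 250 bases before to 50 bases after an annotated start, and matched 6 of the 7 measured genes, all but Hbegf. The 5 motifs searched on both strands were AP-1 (TGANTCA), CRE (TGACGTCA), STAT (TTCNNNGAA), the TATA box (TATAAA) and the kappaB consensus. Gdnf has a second window (chr15:7813477-7813776), which held no match and is not shown. Capitals mark every match. The windows of Gdnf (chr15:7809798-7810097, plus strand), Inhba (chr13:16011601-16011900, plus strand) and Igf1 (chr10:87860861-87861160, plus strand) read as follows.
Gdnf: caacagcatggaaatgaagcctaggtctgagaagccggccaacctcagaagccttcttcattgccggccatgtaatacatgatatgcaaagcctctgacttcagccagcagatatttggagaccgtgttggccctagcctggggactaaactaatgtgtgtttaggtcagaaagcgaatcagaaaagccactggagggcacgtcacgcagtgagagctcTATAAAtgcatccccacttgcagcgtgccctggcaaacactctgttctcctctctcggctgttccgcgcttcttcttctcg
Inhba: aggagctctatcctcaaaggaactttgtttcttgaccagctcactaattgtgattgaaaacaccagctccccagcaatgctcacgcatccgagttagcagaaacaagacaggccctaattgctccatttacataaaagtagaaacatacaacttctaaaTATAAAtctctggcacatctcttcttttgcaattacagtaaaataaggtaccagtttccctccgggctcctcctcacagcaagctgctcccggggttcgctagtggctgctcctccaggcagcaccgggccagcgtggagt
Igf1: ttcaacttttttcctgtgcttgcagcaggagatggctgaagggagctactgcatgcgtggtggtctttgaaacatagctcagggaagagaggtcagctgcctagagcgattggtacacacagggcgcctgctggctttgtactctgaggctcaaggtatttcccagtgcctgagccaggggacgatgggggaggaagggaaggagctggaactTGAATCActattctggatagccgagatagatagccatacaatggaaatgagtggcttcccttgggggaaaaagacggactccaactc
Gdnf held a TATA match that begins at −31 from the annotated start of its window and Inhba one that begins at −91. The Gdnf window spans the start of the gene. Those of Inhba and Igf1 surround starts inside the gene, which itself begins at chr13:16004256 and chr10:87858265. TATA matches occurred in 13.6% of 32851 windows. Igf1 held an AP-1 match that begins at −37, and 7.81% of windows held one. The other motifs were found in none of these 3 windows. They occurred in 1.79% (CRE), 8.3% (STAT) and 4.51% (kappaB consensus) of all windows. Among the windows not shown, different windows of Bdnf held a STAT match beginning at −122, an AP-1 match at −152 and a kappaB consensus match at −229. Those of Fgf2 and Tgfb1 held no match.

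In rostral cord at 48 h, 0 of 7 factors passed in limma, against 0.61% of all genes. The unadjusted p was below 0.05 for 2 of 7 factors (Gdnf and Igf1) and for 1288 of 18193 genes. The arrays did not overlap for the same 2 factors, against 12.1% of all genes. Gdnf read 4.85, 4.89, 4.47 and 4.56 on rostral 48 h arrays 271 to 274, against 4.34, 4.29, 4.19 and 4.41 on rostral sham arrays 277 to 280. All 48 h arrays lay above all sham arrays, by a small margin. The difference was 0.38 ± 0.15 (SE, n = 4 each; limma adjusted p = 0.442). Hbegf read 9.15, 9.10, 9.01 and 8.55 on rostral 48 h arrays, against 8.62, 8.66, 8.69 and 8.57 on rostral sham arrays, a difference of 0.32 ± 0.26. Array 274 was below all sham arrays and the other 48 h arrays above them. Inhba (−0.03 ± 0.26), Bdnf (0.05 ± 0.16), Fgf2 (0.16 ± 0.18) and Tgfb1 (−0.14 ± 0.20) overlapped sham. Without caudal arrays 271, 274 and 280, which changes only the pooled spread here, rostral Gdnf (limma adjusted p = 0.0486) and Igf1 (0.0179) passed.

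Heart muscle transcripts were present on the same rostral arrays. The summed log2 signal of 11 heart muscle genes lay at 13.35 to 14.59 on rostral 48 h arrays, against 9.35 to 9.45 on rostral sham arrays. Of the 11 genes 10 rose, against 0.467% of all genes. In caudal cord the sum lay at 9.99 to 11.92 at 48 h, against 9.30 to 9.42 in sham. There 5 of 11 rose, against 5.52% of all genes. The sum of 6 homeostatic microglia markers was 11.87 to 12.35 on rostral 48 h arrays, against 12.41 to 12.64 on rostral sham arrays. Of these 6 markers 0 passed in limma, against 0.61% of all genes. Neither list's part in the rostral Igf1 values was tested.

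At 24 h no factor differed detectably from sham. In caudal cord 0 of 7 passed in limma, against 0.0055% of all genes, and in rostral cord 0 of 7, against 0% of all genes. The unadjusted p was below 0.05 for 0 of 7 factors in both regions, against 528 genes in caudal and 142 in rostral cord. Caudal differences ran from −0.19 ± 0.29 for Igf1 to 0.24 ± 0.30 for Inhba, and rostral ones from −0.09 ± 0.27 for Igf1 to 0.20 ± 0.28 for Hbegf. Caudal Hbegf read 9.11, 9.09 and 8.62 on 24 h arrays 281 to 283, against 8.83, 8.67 and 8.94 on sham arrays 278 to 280. Arrays 281 and 282 lay above all caudal sham arrays and array 283 below them. Its difference from sham was 0.13 ± 0.30 with a 95% interval of −0.50 to 0.75, and 0.29 ± 0.34 without both arrays numbered 283. Without those arrays 0 of 7 factors passed in either region.

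**Figure D3:**
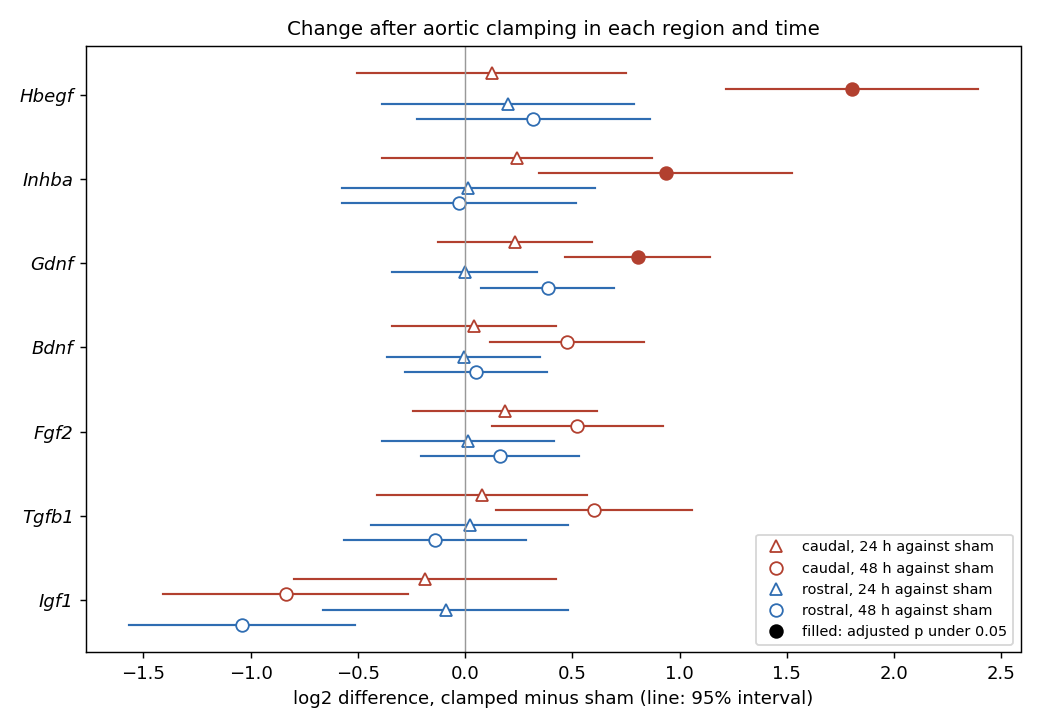
Log2 difference of clamped minus sham arrays with its 95% interval for each factor, at 24 h (triangles) and 48 h (circles) in caudal (red) and rostral (blue) cord, with filled symbols at an adjusted p under 0.05. Only Hbegf (1.81), Inhba (0.94) and Gdnf (0.80) in caudal cord at 48 h are filled.

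The 48 h arrays were also set against the 24 h arrays to see when the change arose. In caudal cord Hbegf was higher at 48 h by 1.68 ± 0.28 (SE, n = 4 and 3; limma adjusted p = 0.00173) and Gdnf by 0.57 ± 0.16 (limma adjusted p = 0.0393). These were 2 of 7 factors, against 6.69% of all genes. The Hbegf call held without both arrays numbered 283 (1.52 ± 0.32, limma adjusted p = 0.0319), and that of Gdnf did not (0.55 ± 0.18, limma adjusted p = 0.173). Both were lost when the compared groups were fitted alone (limma adjusted p = 0.270 for Hbegf and 0.596 for Gdnf). The Gdnf call was also lost in 12 of 21 fits without 1 array, with limma adjusted p-values of up to 0.182. In rostral cord 0 of 7 passed in limma, against 0.363% of all genes, with 2 of 7 factors and 956 genes at an unadjusted p below 0.05. Igf1 had the largest rostral value, −0.95 ± 0.27 (limma adjusted p = 0.266).

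Over the 6 groups, Hbegf in caudal 48 h cord was the only case in which a group's arrays did not overlap those of the group next to it in the order of means. Hbegf averaged 10.62 ± 0.78 (SD, n = 4) there, and its other 5 group means ran from 8.64 to 8.95. Gdnf was highest in caudal 48 h cord (5.03 ± 0.36), then rostral 48 h cord (4.69 ± 0.21), and 4.22 to 4.46 in the other 4 groups. Igf1 ran the other way, lowest in rostral 48 h cord (8.25 ± 0.35) and caudal 48 h cord (8.47 ± 0.51), and 9.12 to 9.31 elsewhere. Inhba averaged 8.52 ± 0.86 in caudal 48 h cord and 7.58 to 7.86 elsewhere. For these and for Bdnf, Fgf2 and Tgfb1, neighbours in the order overlapped except at the Hbegf step. The share of all genes with such a step was not computed, so the step is a description of Hbegf alone.

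Cord below and above T6 was compared at each time. In sham cord 0 of 7 factors differed in limma, against 0.335% of all genes, and at 24 h 0 of 7, against 0%, with 0 factors at an unadjusted p below 0.05 in both (1003 and 57 genes). At 48 h Hbegf was higher in caudal than in rostral cord by 1.66 ± 0.26 (SE, n = 4 each; limma adjusted p = 0.000627) and Tgfb1 by 0.85 ± 0.20 (limma adjusted p = 0.0126). These were 2 of 7 factors, against 9.71% of all genes. The other probe set of Hbegf gave 1.71 ± 0.25 (limma adjusted p = 0.000513), and that of Tgfb1 gave 0.34 ± 0.14 and did not pass (0.122). Tgfb1 read 6.28, 7.38, 6.92 and 6.92 on caudal 48 h arrays 271 to 274, against 6.00, 6.04, 6.04 and 6.03 on rostral ones. All caudal values lay above all rostral values, which were close together. With the 48 h groups fitted alone both calls were lost (limma adjusted p = 0.0903 for Hbegf and 0.137 for Tgfb1).

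Whether the 48 h change itself differed between regions was tested as the caudal minus the rostral difference from sham. In limma 0 of 7 factors passed, against 0.561% of all genes, with 3 of 7 factors and 2228 genes at an unadjusted p below 0.05. Hbegf gave 1.49 ± 0.38 (limma adjusted p = 0.0976), Inhba 0.96 ± 0.38 (0.364) and Tgfb1 0.74 ± 0.30 (0.370). This fit took no account of caudal and rostral arrays that share a number, and the labels do not say what the number marks. With the number as a random block Hbegf passed (1.49 ± 0.35, limma adjusted p = 0.0472), and with it as a fixed block Hbegf did not. Without caudal 48 h array 274 Hbegf gave 1.80 ± 0.30 (limma adjusted p = 0.00236), Inhba 1.32 ± 0.26 (0.00743) and Fgf2 0.61 ± 0.16 (0.0413). Without caudal arrays 271, 274 and 280 Hbegf gave 1.57 ± 0.26 (limma adjusted p = 0.00341), Inhba 0.90 ± 0.18 (0.0108) and Tgfb1 1.19 ± 0.27 (0.0200). At 24 h 0 of 7 passed in limma, against 0% of all genes, with 0 factors and 338 genes at an unadjusted p below 0.05.

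Receptors, relatives and regulators of the factors were examined as 8 lists with 114 measured genes. The lists were chosen with earlier results of these data known, so their counts are descriptions and test no excess over all genes. In caudal cord at 48 h, 16 rose (14%) and 15 fell (13.2%), against 5.52% and 7.02% of all genes. In rostral cord 1 rose (0.877%) and 0 fell (0%), against 0.467% and 0.143% of all genes. These shares of all genes also apply to the counts of each list below. Without both arrays numbered 283 the caudal counts were 15 higher (13.2%) and 9 lower (7.89%), against 4.58% and 4.44% of all genes in that fit. Without caudal arrays 271, 274 and 280 they were 29 higher (25.4%) and 9 lower (7.89%), against 8.91% and 16.7% of all genes. In rostral cord 0 passed in limma without both arrays numbered 283, against 0.39% of all genes higher and 0.104% lower. In rostral cord the counts without those 3 caudal arrays were 7 higher (6.14%) and 5 lower (4.39%), against 2.28% and 2.6% of all genes.

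Genes of EGF receptor signalling, the pathway of Hbegf, moved in both directions. Of 17 measured, 3 rose and 2 fell, with a list median of 0.07. Btc, betacellulin, another EGF receptor ligand, averaged 7.66 ± 1.31 (SD, n = 4) on caudal 48 h arrays and 5.77 ± 0.08 (n = 3) on caudal sham arrays, a difference of 1.90 ± 0.44 (SE; limma adjusted p = 0.00944). Errfi1, a feedback inhibitor of the receptor, rose by 1.14 ± 0.19, and Rhbdf2, which helps the sheddase Adam17 to mature, by 0.65 ± 0.12. Erbb3, a neuregulin receptor, fell, with a difference of −1.09 ± 0.27 (limma adjusted p = 0.0145). The neuregulin gene Nrg1, named after its value was seen, also fell (−0.45 ± 0.14, limma adjusted p = 0.0391), a call lost without both arrays numbered 283 (0.0603). In rostral cord Errfi1 had the smallest p of the list, with a difference of 0.70 ± 0.18 (limma adjusted p = 0.0959).

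Around activin and TGF-beta, intracellular regulators and receptors changed. Of 9 activin partners 1 rose and 3 fell (median −0.14). Bambi, a pseudoreceptor that dampens signalling, rose by 1.09 ± 0.19 (limma adjusted p = 0.00136), while the type I receptor Acvr1c (−1.05 ± 0.22), the inhibin alpha gene Inha (−0.52 ± 0.14) and the type II receptor Acvr2b (−0.42 ± 0.13) fell. Acvr2b no longer passed without both arrays numbered 283 (limma adjusted p = 0.0633). Neither Inha (−0.27, limma adjusted p = 0.0947) nor Acvr2b (−0.26, 0.163) passed without caudal arrays 271, 274 and 280. Of 26 TGF-beta partners 4 rose and 1 fell (median 0.03). The Smad corepressor Tgif1 rose by 1.87 ± 0.43, the matricellular target Ccn2 by 0.69 ± 0.19 and Smad3 by 0.52 ± 0.13, while Ltbp4, which binds latent TGF-beta, fell (−0.62 ± 0.14). Ltbp4 did not pass without caudal arrays 271, 274 and 280 (−0.43, limma adjusted p = 0.0556). Nrros, a tether of latent TGF-beta on myeloid cells, rose by 0.78 ± 0.24 and was named after its value was seen. Ccn2 was also the rostral gene that rose, by 0.77 ± 0.17 (limma adjusted p = 0.0482, and 0.0950 without both arrays numbered 283). The rostral 48 h arrays also carried heart muscle transcripts, with a sum of 13.35 to 14.59 against 9.35 to 9.45 in rostral sham. Their part in the rostral Ccn2 value was not tested.

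Among receptors of the neurotrophic factors, those that passed were lower. Of 8 neurotrophin partners 0 rose and 2 fell (median −0.45), namely Ngfr, the p75 receptor (−0.86 ± 0.24, limma adjusted p = 0.0282), and Sort1, sortilin (−0.80 ± 0.25, limma adjusted p = 0.0397). Sort1 did not pass without both arrays numbered 283 (limma adjusted p = 0.0613). Ngfr did not pass without caudal arrays 271, 274 and 280 (−0.67, limma adjusted p = 0.0972), while Sort1 passed at −0.44 (0.00457). Of 9 GDNF family genes 1 rose and 2 fell (median −0.01). Ret, the GDNF receptor kinase, gave −0.52 ± 0.17, the alternative receptor Ncam1 −0.50 ± 0.15 and the relative Artn, artemin, 0.32 ± 0.10, and these 3 calls were all lost without both arrays numbered 283 (limma adjusted p-values of 0.0665, 0.0645 and 0.0661). Ret gave −0.30 (limma adjusted p = 0.0495) without caudal arrays 271, 274 and 280, and Ncam1 did not pass (−0.21, 0.277). The summed signal of 5 neuronal markers was 13.82, 14.81, 14.91 and 14.79 on caudal 48 h arrays 271 to 274, against 14.92 to 15.06 on caudal sham arrays. Of these 5 markers 0 passed in limma, against 12.5% of all genes. The summed signal of 5 measured sensory ganglion markers was 8.30, 9.33, 9.19 and 8.21 on caudal 48 h arrays 271 to 274. It was 9.93, 10.10 and 9.15 on caudal sham arrays 278 to 280, and 7.44 to 7.66 on rostral sham arrays. Ngfr averaged 8.36 on caudal and 6.83 on rostral sham arrays, Ret 9.91 and 9.56, and Sort1 10.98 and 10.99. The part of either list in the receptor values was not tested.

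Ligands and a receptor of the CNTF receptor family rose, although Cntf itself was not analysed here. Of 8 measured partners 4 rose and 0 fell in caudal cord at 48 h (median 0.52). Lif, leukaemia inhibitory factor, averaged 8.64 ± 1.71 (SD, n = 4) on caudal 48 h arrays and 5.53 ± 0.23 (n = 3) on caudal sham arrays, a difference of 3.11 ± 0.56 (SE; limma adjusted p = 0.00155). The oncostatin M receptor Osmr rose by 2.00 ± 0.41, and its ligand Osm by 1.19 ± 0.20, and the cardiotrophin-like cytokine Clcf1 also passed (limma adjusted p = 0.0193). In rostral cord Osmr gave 1.52 ± 0.38 (limma adjusted p = 0.0885). The caudal count was the same without both arrays numbered 283 and without caudal arrays 271, 274 and 280, while in rostral cord Osmr passed without those 3 caudal arrays (limma adjusted p = 0.0233).

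Partners of Fgf2 and Igf1 completed the set. Of 20 FGF genes 2 rose and 5 fell (median −0.11). The feedback phosphatase Dusp6 rose by 0.74 ± 0.13, while the receptor Fgfr2 (−1.03 ± 0.21), Fgf18 (−0.50 ± 0.12) and Fgf9 (−0.55 ± 0.14) fell. The other calls, named after their values were seen, were the feedback inhibitor Spry2 (0.82 ± 0.22), the proteoglycan Gpc1 (−0.42 ± 0.11) and the receptor Fgfr3 (−0.80 ± 0.25). Fgfr3 did not pass without both arrays numbered 283 (limma adjusted p = 0.0670), nor Gpc1 without caudal arrays 271, 274 and 280 (−0.30, 0.0587). Oligodendrocyte precursor markers were lower in the same comparison, 2 of 3 passing, against 7.02% of all genes lower. Their summed log2 signal was 9.73, 10.45, 10.76 and 10.43 on caudal 48 h arrays 271 to 274, against 10.76 to 10.85 on caudal sham arrays. Of 5 endothelial markers 2 fell, against the same share of all genes. Their median sum was 10.82 on caudal 48 h arrays, against 11.15 on caudal sham arrays, with array 272 within the sham range. The part of either list in the partner genes that fell was not tested. Of 17 IGF genes 1 rose and 0 fell (median 0.10), against 5.52% and 7.02% of all genes. The gene that rose was Igfbp3, which binds Igf1 outside the cell, with a difference of 1.57 ± 0.42 (limma adjusted p = 0.0229). The IGF count was 4 higher and 0 lower without caudal arrays 271, 274 and 280, against 8.91% and 16.7% of all genes.

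**Figure D4:**
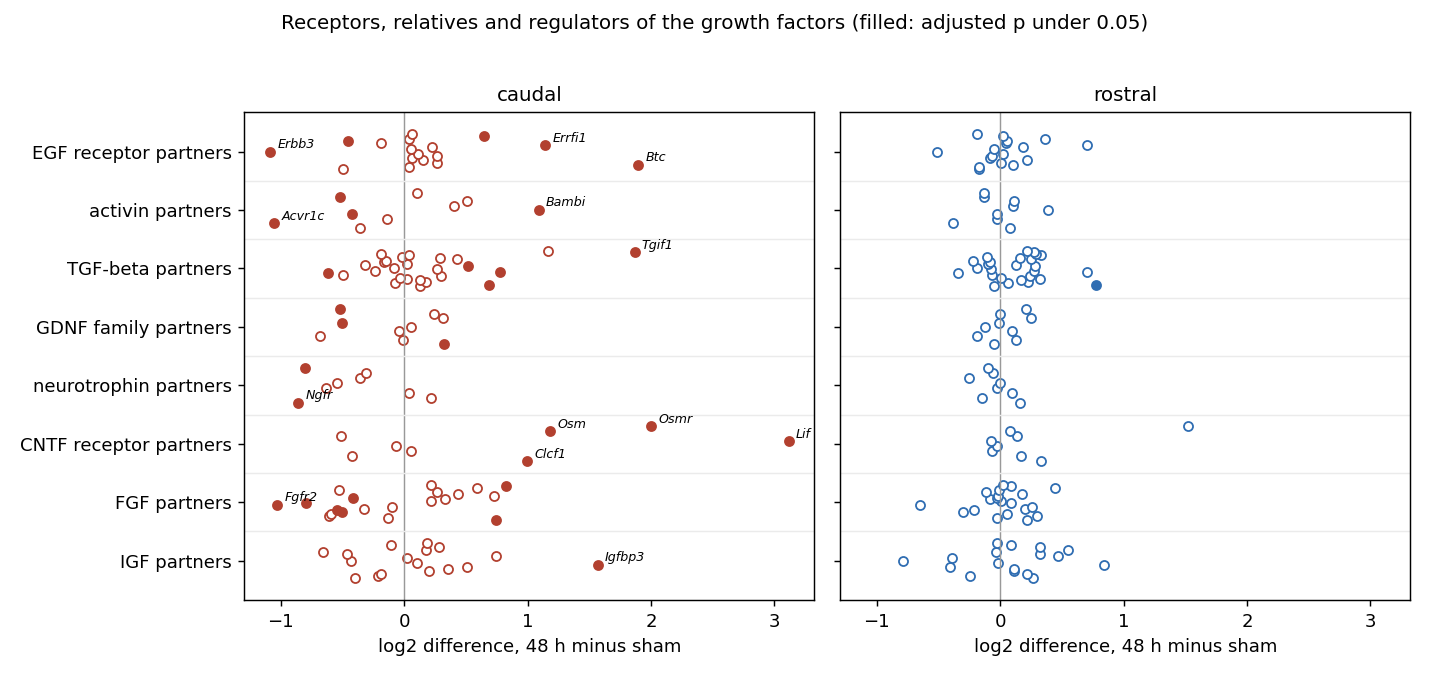
Log2 difference of 48 h minus sham for each of 114 measured partner genes, 1 row per list, in caudal (left) and rostral (right) cord, with filled points at an adjusted p under 0.05 and names at filled caudal points whose difference exceeds 0.85 in size. Lif (3.11), Osmr (2.00), Btc (1.90) and Tgif1 (1.87) lie farthest to the right in caudal cord, and a single rostral point is filled.

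For the 3 factors that passed at 48 h, the named genes with the most similar profile were taken by Pearson r over the 21 grouped arrays, which share groups and array quality. For Hbegf they were Casp1, Rab20 and Hcls1 (r = 0.98 each). For Inhba they were Aida (0.98), Nop9 (0.97) and Zfp281 (0.96), and for Gdnf Fcgr2b (0.95), Socs3 (0.95) and Tgm1 (0.94). Without caudal arrays 271, 274 and 280 these values were 0.96 to 0.97 for Hbegf, 0.93 to 0.95 for Inhba and 0.92 to 0.94 for Gdnf, over 18 arrays.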

How the data were processed

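Spinal cord RNA of 22 samples was measured on Affymetrix Mouse430_2 arrays. The authors deposited log2 signals computed by RMA, according to the submitters' processing notes (no version stated), and these were used unchanged. The annotation lists 1 symbol for 34945 of 45101 probe sets, several for 932 and none for 9160, and 64 more are controls. The brightest single-symbol probe set stood for each of 18193 genes. Precision is set by how many arrays a group holds.

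Using R 4.3.3 and limma 3.58.1 (lmFit, then eBayes), 1 linear model with 6 group means took in 21 arrays and a common spread. Including the prior this left 18.7 degrees of freedom. Tests were two-sided, with Benjamini-Hochberg adjustment over all genes in each contrast and a threshold of 0.05. The procedure was tested on simulated data. Factors, partner lists and tests were chosen with earlier results of these data known. At 48 h the rule named up to 4 passing partners per list and region with the smallest adjusted p, or the single smallest p where none passed, and for each factor that passed the 3 genes with the highest r, leaving out members and clone or predicted names. Alternatives were other probe set rules, filters, normalisations, eBayes settings, array weights, title number as a block, array 276 as 24 h or 48 h, and arrays left out. For partner genes and profile likeness, leaving out arrays was chosen after seeing the data. Motif matches in the start-site windows are descriptions of sequence.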

Additional observations from a re-analysis of the deposited data

Results flagged for a closer look

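Among 21 groups of 4 arrays (3 groups for each of 7 factors), 1 held an array set apart from the other arrays of its group. Tgfb1 read 6.00 on rostral 48 h array 271, against 6.03 for the nearest and 6.04 for the highest of the other 3 arrays, so that the gap was 0.857 of the group's range. Chance alone sets about 1 in 20 groups apart in this way.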

How the results depend on the processing

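Of 2532 values of the 7 factors under the alternatives, 2415 kept their direction and their side of the threshold or stayed within the spread, 66 newly passed, 26 no longer passed and 25 moved. No difference that passed changed direction. The count of factors that passed was 3 for caudal 48 h against sham, 0 for rostral 48 h against sham, 2 for caudal 48 h against 24 h, 0 for rostral 48 h against 24 h, 2 for caudal against rostral cord at 48 h and 0 for the region difference of the 48 h change. With arrays weighted by quality the counts in this order were 6, 2, 5, 2, 5 and 3. With the compared groups fitted alone they were 0, 1, 0, 0, 0 and 0, and over all genes 142 passed for caudal 48 h against sham, compared with 2282 in the reported fit and 6245 with array weights. Without caudal arrays 271, 274 and 280 they were 6, 2, 6, 0, 5 and 3, and the shares of all genes that passed were 25.6%, 4.88%, 20.6%, 2.23%, 17.6% and 4.88%, compared with 12.5%, 0.61%, 6.69%, 0.363%, 9.71% and 0.561% in the reported fit. With only the 9096 brighter genes, which hold 3 of the factors, caudal 48 h against 24 h and caudal against rostral at 48 h each gave 1. Without both arrays numbered 283 the count was 2 for caudal 48 h against sham and 1 for caudal 48 h against 24 h.

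With each array left out in turn the counts ran from 2 to 5 for caudal 48 h against sham, from 0 to 1 for rostral 48 h against sham, from 1 to 4 for caudal 48 h against 24 h, from 2 to 5 for caudal against rostral at 48 h and from 0 to 3 for the region difference of the 48 h change. Leaving out caudal 48 h array 274 gave the upper end in each of these, shared with array 273 for caudal 48 h against sham and with caudal 271 and 272 and rostral 274 for rostral 48 h against sham. The cause of these shifts was not tested.

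Same-numbered caudal and rostral arrays did not deviate together in every pair (10 pairs, r from −0.45 to 0.53, 6 above 0.1, all 4 of the 48 h pairs among them). In 6 of the 10 pairs the caudal array's best match among rostral arrays of its time carried its own number. These were all 4 of the 48 h pairs and sham pairs 278 and 279. The 24 h pairs gave −0.19 (281), −0.03 (282) and −0.45 (283). Deviations were taken from group means, and the 24 h means include both arrays numbered 283, which went against their region labels. The 24 h pairs therefore cannot tell whether the number marks a pair. The labels do not say what the number marks, so the reported fit did not use it as a block. With the number as a random block (consensus correlation 0.138) the region difference of the 48 h change gave 1 factor, Hbegf (1.49 ± 0.35, limma adjusted p = 0.0472), and caudal Igf1 at 48 h passed (−0.83 ± 0.26, limma adjusted p = 0.0425). With the number as a fixed block Hbegf gave 1.49 ± 0.31 (limma adjusted p = 0.0509).

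The groups hold 3 or 4 arrays, Gdnf and Fgf2 are near the lower end of the signal range, and time and title number run together, so an effect of processing order cannot be told apart from time.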

Other observations

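The rostral array 276, which carries both 24 h and 48 h in its labels, read 8.86 for Hbegf, 7.64 for Inhba, 4.43 for Gdnf, 7.29 for Bdnf, 3.85 for Fgf2, 6.05 for Tgfb1 and 8.71 for Igf1.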
